A study of Rattus norvegicus with 13 samples.

Results

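The 36 genes described here are interferon-stimulated genes, chosen by name as rows of the day 3 files, and 35 of them had a row (Xaf1 had none). Of the 28357 genes named in those files, 14762 passed the filter on low counts, among them 34 of the 36. The excluded member with a row was the peptide transporter gene Tap2. The series holds 13 libraries sequenced from RNA of the outer cornea and adjoining limboscleral tissue, and the results below use the 6 of day 3. The rats were male, of the Lewis strain, wild-type and 2 months old, and modelled corneal neovascularization with loss of limbal stem cells. The spironolactone group (n = 3) received 25 mg/kg/day of this mineralocorticoid receptor antagonist systemically, by daily subcutaneous injection over 3 days per the labels. The vehicle group (n = 3) received 90% olive oil with 10% DMSO. No label says that the libraries of a group came from separate animals, so the spread between them may be technical. The day 7 files identify genes by codes that no source used here pairs with symbols, so the members were not analysed at day 7.

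Interferons are secreted when cells detect foreign or misplaced nucleic acid. The RNA helicases RIG-I (gene Ddx58) and MDA5 (Ifih1) are cytoplasmic sensors that lead to transcription of type I interferon, which signals through its receptor to a complex that holds STAT2 and IRF9. This complex binds a DNA element, the interferon-stimulated response element (ISRE), and switches on genes whose products block viral entry, translation or replication. Interferon gamma acts on another element, the gamma-activated site (GAS), and induces IRF1, guanylate-binding proteins and the genes that cut peptides and load them onto class I molecules. Corneal epithelium, stromal cells and infiltrating leukocytes can all respond to interferon.

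The promoter sequences below show an element that many of these genes share. They are those of a sensor, a transcription factor, effectors with different library patterns, a guanylate-binding protein and a pair of class I transporter genes. The windows come from RefSeq (GRCr8), read 5′ to 3′ on the strand of the gene, and end before the annotated start. Capitals mark an ISRE-like core, GAAA-NN-GAAA (N is any base), or its reverse complement TTTC-NN-TTTC.
Ifih1: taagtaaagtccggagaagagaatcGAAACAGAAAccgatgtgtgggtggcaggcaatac
Irf7: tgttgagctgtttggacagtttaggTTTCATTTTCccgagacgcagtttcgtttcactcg
Ifit3: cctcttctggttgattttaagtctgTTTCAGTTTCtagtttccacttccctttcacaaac
Rsad2: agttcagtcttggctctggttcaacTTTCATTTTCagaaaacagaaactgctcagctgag
Oas1a: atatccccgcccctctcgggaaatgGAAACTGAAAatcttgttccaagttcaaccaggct
Eif2ak2: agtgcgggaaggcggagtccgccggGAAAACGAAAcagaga
Gbp2: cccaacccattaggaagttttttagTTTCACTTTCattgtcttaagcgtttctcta
Tap1: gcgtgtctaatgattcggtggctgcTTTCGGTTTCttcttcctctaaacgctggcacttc
Tap2: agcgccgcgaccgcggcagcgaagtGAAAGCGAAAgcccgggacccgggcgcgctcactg

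In GRCr8 these windows are chr3:67683993-67684052 (minus strand) for Ifih1, chr1:205800058-205800117 (minus) for Irf7 and chr1:241527257-241527316 (plus) for Ifit3. They are chr6:48788233-48788292 (minus) for Rsad2, chr12:41330406-41330465 (plus) for Oas1a and chr6:21941113-21941153 (plus) for Eif2ak2. The last set is chr2:234005671-234005726 (plus) for Gbp2, chr20:4668630-4668689 (minus) for Tap1 and chr20:4652303-4652362 (minus) for Tap2. The matched core began 59 bases before the start in Ifih1, 44 in Ifit3, 147 in Rsad2, 16 in Eif2ak2 and 121 in Tap1. A promoter window of 300 bases (250 before the start and 50 after it) was found under the same symbol for 27 members, among them Xaf1, which has no expression values here. The ISRE-like core, searched on both strands, lay in 17 of these 27 windows (63%), against 3.92% of all 33469 promoter windows of the same length. It was present in 12 of 21 windows of sensors, factors and effectors, in both of the guanylate-binding genes and in 3 of 4 of the class I processing genes. A GAS-like match, TTCNNNGAA (a palindrome), lay in 6 of the 27 windows, against 8.87% of all. Oas1a and Bst2 each held a pair of overlapping ISRE-like matches, so the match of Oas1a printed above starts inside the other one. In Parp14 and in Bst2 a GAS-like match overlapped an ISRE-like one or lay next to it. These letters were not found in the windows of Oasl, Mx1 and Trim25. The class I windows with the core were those of Psmb8, Tap1 and Tap2, which was not tested for expression. The window of Psmb9 (chr20:4668750-4669049, plus strand) lacked the core, and Nlrc5 had no window. The printed Tap1 sequence lies upstream of that Psmb9 window, between the starts of both genes. The gene group set against the effectors therefore held the same element in part, and the search says nothing about which factor was bound.

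Irf1, itself a transcription factor of interferon gamma responses, had a GAS-like match beginning 142 bases before its start, at chr10:38417768-38417826 (plus strand, GRCr8), shown with the match in capitals as an example of the second site type.
Irf1: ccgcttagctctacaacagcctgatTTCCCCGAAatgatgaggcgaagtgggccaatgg

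Library totals were 18.2 M to 25.3 M estimated counts, with 0.12% to 0.181% in a row that names no gene. Spironolactone replicate 3 stood apart by its retinal transcripts. The summed level of 5 retinal markers was 178 TPM (the deposited unit scaled for gene length and depth) there and 2482 to 4361 TPM in the other libraries. Spironolactone replicates 1 and 2, at 2482 and 3229 TPM, also lay below every vehicle library (3897 to 4361 TPM). Vehicle replicate 3 stood apart by 6 lens markers, at 807 TPM against 6.15 to 65.9 TPM elsewhere. In every spironolactone library the 9 epithelial markers summed higher (14210 to 16924 TPM) than in any vehicle library (8335 to 11667 TPM). The 9 leukocyte markers with a row summed lower (703 to 781 against 787 to 979 TPM), as did 6 muscle markers (120 to 203 against 417 to 889 TPM). So did 6 vascular endothelial markers (156 to 188 against 213 to 279 TPM). Most of the leukocyte sum came from Cd74 (508 to 536 against 546 to 699 TPM). All 9 leukocyte markers had a negative log2 fold change, but 6 of the 9 overlapped between the groups. Of the epithelial, leukocyte, muscle and endothelial markers 0 passed the edgeR test described below, as did 0% of all genes. The 6 stromal markers overlapped (6209 to 6932 against 6661 to 7310 TPM). No marker of these 7 lists was at 0 in all 6 libraries. Krt12, the keratin of differentiated corneal epithelium, was low (7.23 to 10.9 TPM), while Krt5 of basal epithelium was at 3181 to 7708 TPM. In tissue of this kind fewer cells of a type and less RNA per cell cannot be told apart, and the part of these shifts in the results below was not tested.

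No interferon-stimulated gene passed the test at day 3, but nearly all had higher mean values with spironolactone, the effectors more than the class I genes. Of 34 tested members, 31 had a positive log2 fold change, against 48.4% of all genes tested. The median log2 fold change was 0.18, against -0.01 over all genes. It was 0.21 for the 28 sensors, factors and effectors, 0.43 for the pair of guanylate-binding genes and 0.01 for the 4 tested class I processing genes. Sensors, factors and effectors were positive in 26 of 28, and class I processing genes in 3 of 4. These medians describe lists chosen with earlier results known and carry no test, and the difference between the lists was not tested.

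By edgeR's quasi-likelihood test, with p-values adjusted by Benjamini-Hochberg over all 14762 genes, 0 members had an adjusted p under 0.05, as did 0% of all genes. At an unadjusted p under 0.05 there were 7 members higher (20.6%, against 12.2% of all genes) and 0 lower (against 10.4%). DESeq2 called 2 members, Oasl and Trim25, both higher, where it called 5.74% of all genes higher and 3.41% lower. Limma-voom called 0 members and 0% of all genes. In 5 members every spironolactone library exceeded every vehicle library. That is 14.7% of the members against 16% of all genes, so such a separation was no more frequent among them than elsewhere. In 0 members did every spironolactone library lie below, against 16.1% of all genes.

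**Figure D1:**
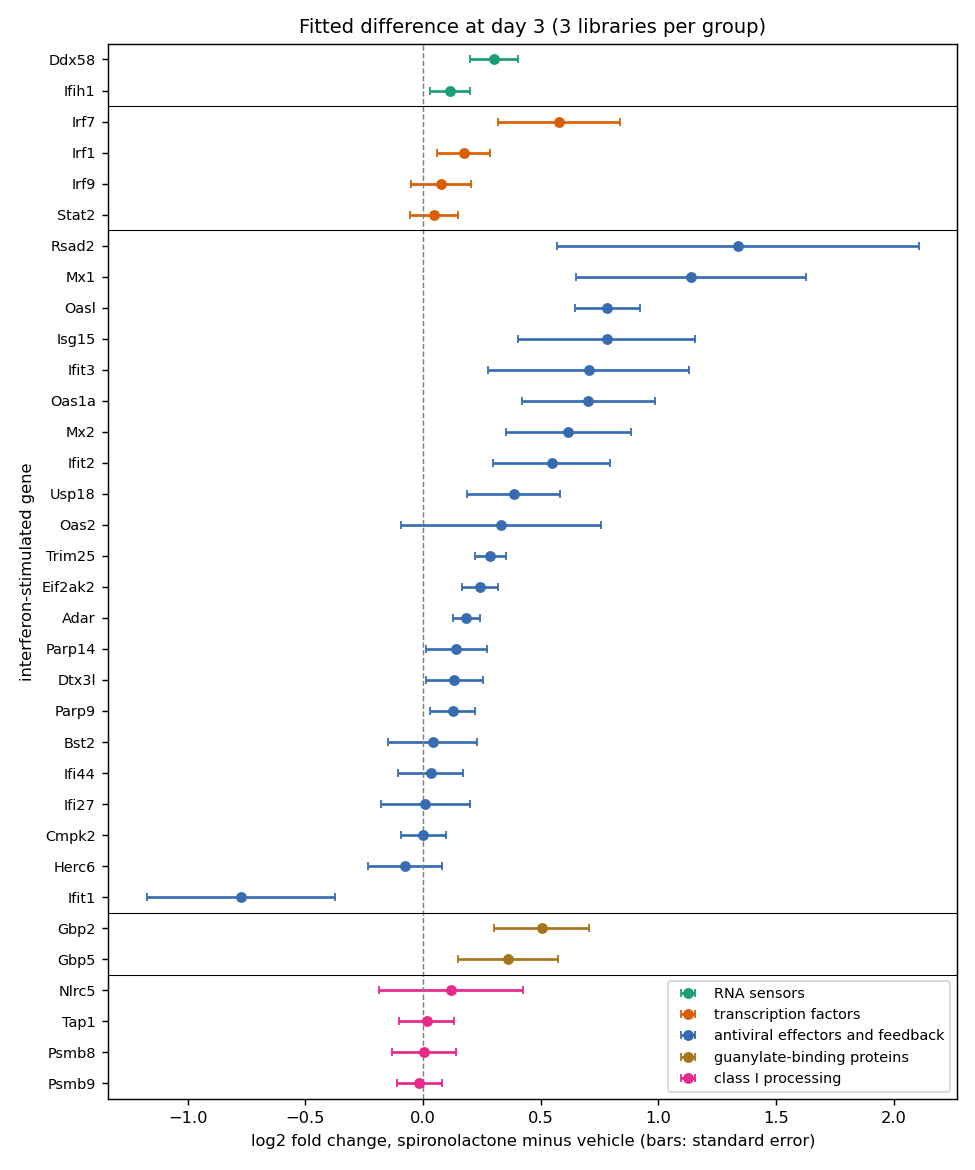
Log2 fold change (spironolactone minus vehicle) of the 34 tested interferon-stimulated genes at day 3, with standard errors from the edgeR fit of 3 libraries per group, ordered by role and coloured by role. Rsad2 at 1.34 and Mx1 at 1.14 have the highest estimates and wide bars, while Oasl at 0.78 has a narrow one. Psmb8, Psmb9 and Tap1 lie at 0 and Nlrc5 lies at 0.12 with a wide bar.

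The 5 members without overlap were Oasl, Trim25, Eif2ak2, Adar and Ddx58, which had the smallest p-values. Oasl encodes an oligoadenylate synthetase-like protein. Oasl had 25.9, 19.1 and 26.2 CPM (counts relative to library depth, scaled by TMM, not for gene length) in spironolactone replicates 1, 2 and 3, and 12.8, 14.7 and 13.8 CPM in vehicle replicates 1, 2 and 3. All spironolactone libraries lay above all vehicle libraries, with replicate 2 the lowest of its group. The means were 23.7 ± 4.01 CPM (SD, n = 3) and 13.8 ± 0.958 CPM (SD, n = 3), a log2 fold change of 0.78 (SE 0.136), with an adjusted p of 0.0649 by edgeR. Oasl was the member closest to the threshold and passed it under DESeq2 (adjusted p = 1.93e-04) and in edgeR without the filter on low counts (adjusted p = 0.0471, where 0.787% of all genes passed).

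Trim25 encodes the ubiquitin ligase that acts on RIG-I. Trim25 had 62.4, 65.5 and 70.6 CPM with spironolactone and 53.7, 56.9 and 52.3 CPM with vehicle. The groups did not overlap and each spanned a narrow range. The log2 fold change of Trim25 was 0.29 (SE 0.065), with an adjusted p of 0.0777 by edgeR and 0.0175 by DESeq2. Eif2ak2, the gene of the double-stranded RNA kinase PKR that halts translation, had 128, 113 and 128 CPM against 100.3, 112 and 99.1 CPM. Its lowest spironolactone library was within 1 CPM of its highest vehicle library, so the separation was slight. Adar encodes the enzyme that edits adenosine in double-stranded RNA and limits sensing of the cell's own RNA. Adar had 76.7, 70.4 and 73.3 CPM against 65, 67.3 and 61.7 CPM, a log2 fold change of 0.18 (SE 0.0575). The adjusted p by edgeR was 0.13 for Eif2ak2 and 0.134 for Adar.

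Of the 2 RNA sensors, 1 separated the groups and 1 did not. Ddx58 (RIG-I) had 18.9, 17.7 and 20.5 CPM with spironolactone and 14.6, 17.3 and 14.4 CPM with vehicle, without overlap, though spironolactone replicate 2 and vehicle replicate 2 were close. Its log2 fold change was 0.30 (SE 0.104, adjusted p = 0.159 by edgeR). Ifih1 (MDA5) had 26.1, 22.5 and 24.9 CPM against 23.1, 23.7 and 21 CPM. These groups overlapped, and Ifih1 differed by 0.11 on the log2 scale (SE 0.0849), or 0.07 without spironolactone replicate 1, with an edgeR adjusted p of 0.442 for all libraries.

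Among the transcription factors, Irf7, the amplifier of type I interferon production, was high in a single spironolactone library and intermediate in another. Irf7 had 64.9, 31.7 and 49.2 CPM with spironolactone and 34.5, 34.7 and 28.2 CPM with vehicle. Spironolactone replicate 2 lay inside the vehicle range. The log2 fold change of Irf7 was 0.58 (SE 0.259, adjusted p = 0.251 by edgeR), and 0.32 without spironolactone replicate 1. Irf1 was at 74.5 CPM in spironolactone replicate 1 and at 54.8 to 57.3 CPM in the other 5 libraries, with a log2 fold change of 0.17 (SE 0.113) that was 0.03 without that replicate. Irf9 and Stat2, whose products belong to the ISRE-binding complex, lay close to 0 on the log2 fold change scale, at 0.08 (SE 0.128) for Irf9 and 0.05 (SE 0.103) for Stat2. Their per-length levels, at 28.2 and 34.9 TPM over the 6 libraries, were of the same order as that of Irf7, at 33.5 TPM.

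Several antiviral effectors, among them Rsad2 and Mx1 with the highest fold changes, had widely spread spironolactone libraries. Mx1 and Mx2 encode dynamin-like GTPases that trap viral components. Mx1 had 51.7, 25.4 and 74.4 CPM with spironolactone and 25.3, 30.2 and 13.2 CPM with vehicle. Spironolactone replicates 1 and 3 lay above every vehicle library and replicate 2 lay among them. The log2 fold change of Mx1 was 1.14 (SE 0.489, adjusted p = 0.247 by edgeR), 0.74 without spironolactone replicate 3 and 0.47 without the replicates 3 of both groups. Mx2 had the same order of libraries, at 52.7, 39.4 and 69.3 CPM against 34.7, 44.2 and 26.3 CPM. Its log2 fold change was 0.62 (SE 0.265), and 0.39 without spironolactone replicate 3.

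Isg15, a ubiquitin-like modifier, had 11.6, 5.92 and 14.6 CPM with spironolactone and 6.47, 7.93 and 4.21 CPM with vehicle. Ifit2, of a family that binds viral RNA and blocks its translation, had 95.9, 63 and 128 CPM against 62.4, 68.7 and 65.2 CPM. In both genes replicates 3 and 1 were the highest of all libraries and spironolactone replicate 2 lay inside the vehicle range. The log2 fold changes were 0.78 (SE 0.376) for Isg15 and 0.55 (SE 0.248) for Ifit2, and 0.48 and 0.28 without spironolactone replicate 3. Oas1a, a synthetase of the RNase L activator, had 20.3, 9.59 and 13.2 CPM against 9.62, 9.54 and 7.21 CPM. Here replicate 1, not 3, was the highest, and the log2 fold change was 0.70 (SE 0.281, adjusted p = 0.209 by edgeR), and 0.37 without replicate 1. Gbp2, a GTPase induced by interferon gamma, had 158, 98.1 and 123 CPM against 80.8, 107 and 78.9 CPM, also led by replicate 1. Its log2 fold change was 0.50 (SE 0.203), and 0.31 without that replicate. Gbp5, which acts with inflammasomes, differed by 0.36 on the log2 scale (SE 0.213), and by 0.21 without spironolactone replicate 3.

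Spironolactone replicates 1 and 3 between them held the highest value of most members, and replicate 2 held none. The highest CPM was in replicate 1 for 17 of 34 members (against 13.4% of all genes) and in replicate 3 for 13 (against 23.7%), together 30 of 34 (against 37%). It was in replicate 2 for 0 members (against 15.1% of all genes), in vehicle replicate 2 for 3 and in vehicle replicate 1 for 1. The lowest CPM was in vehicle replicate 3 for 23 of 34 members, against 11.2% of all genes. Lists set against the effectors shared parts of this pattern. Of 4 class I processing genes, 3 were highest in spironolactone replicate 1 and 4 lowest in vehicle replicate 3. Of 18 other class I presentation genes, these numbers were 11 and 8. Of 15 constitutive proteasome genes, 14 were highest in spironolactone replicate 3 and 0 lowest in vehicle replicate 3. The range of log2 CPM was wider among spironolactone than among vehicle libraries in 25 of 34 members, against 59.9% of all genes. Per library, the median log2 deviation of the sensors, factors and effectors from their vehicle mean was 0.31, -0.02 and 0.19 in spironolactone replicates 1, 2 and 3, and 0.02, 0.12 and -0.14 in vehicle replicates 1, 2 and 3. Spironolactone replicate 2 thus lay between vehicle replicates 3 and 1.

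**Figure D2:**
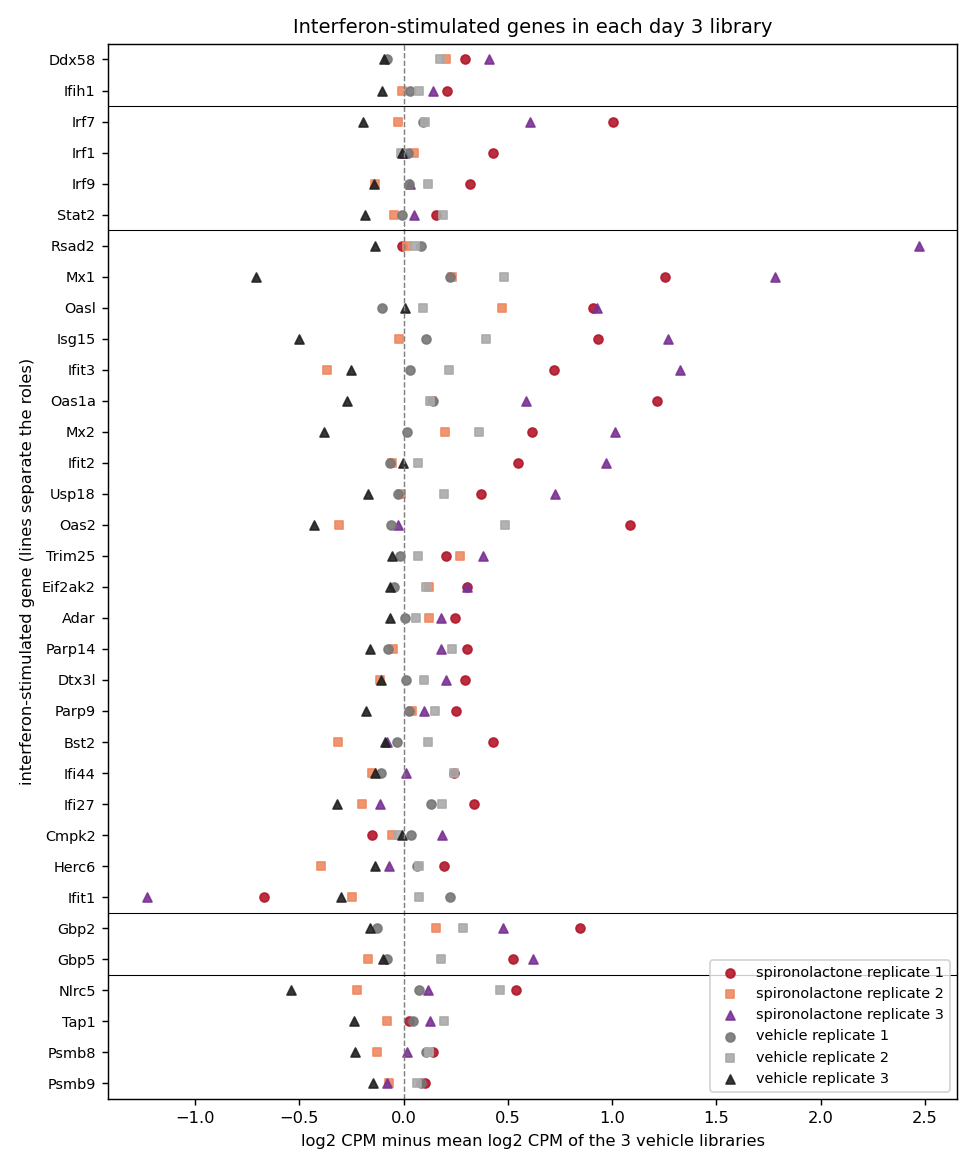
Each row is a tested interferon-stimulated gene and each point a day 3 library, placed by its log2 CPM minus the mean log2 CPM of the 3 vehicle libraries. Red circles (spironolactone replicate 1) and purple triangles (replicate 3) lie to the right for most effectors, with Rsad2 at 36.2 CPM in replicate 3 farthest out, while orange squares (replicate 2) lie among the grey and black vehicle points.

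The libraries of replicate 1 and replicate 3 also differed in which genes were high. Rsad2, Ifit3 and Oas2 are given by library because of this spread, a choice made after their values were seen. Rsad2 encodes viperin, an enzyme that makes a chain-terminating nucleotide. Rsad2 had 6.42, 6.52 and 36.2 CPM with spironolactone and 6.84, 6.72 and 5.86 CPM with vehicle. A single library was 5.64-fold above the lowest of its own group, and the other 5 lay together. For Rsad2 the log2 fold change was 1.34 (SE 0.769) with all libraries and 0.00105 without spironolactone replicate 3. Ifit3 had 32, 15 and 48.6 CPM against 19.7, 22.5 and 16.2 CPM, and its log2 fold change of 0.70 (SE 0.427) was 0.26 without spironolactone replicate 3. Oas2 had 8, 2.98 and 3.65 CPM against 3.57, 5.24 and 2.74 CPM, so that replicate 1 alone stood above vehicle. For Oas2 the log2 fold change was 0.33 (SE 0.425), and -0.22 without spironolactone replicate 1.

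The CPM ratio of spironolactone replicate 3 to replicate 1 was 5.64 for Rsad2, 1.52 for Ifit3, 1.44 for Mx1, 1.34 for Ifit2 and 1.32 for Mx2. Below 1 it was 0.456 for Oas2, 0.647 for Oas1a, 0.702 for Bst2, 0.733 for Ifi27, 0.743 for Irf1 and 0.759 for Irf7. The chemokine gene Cxcl10, which is not a listed member and is induced by both interferon types, had the profile of Rsad2, at 5.41, 4.31 and 29.4 CPM with spironolactone and 4.4, 4.66 and 4.21 CPM with vehicle. Its log2 fold change of 1.56 (SE 0.814) was 0.13 without spironolactone replicate 3. This is also the library with 178 TPM of retinal markers, and a link between these values was not tested.

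**Figure D3:**
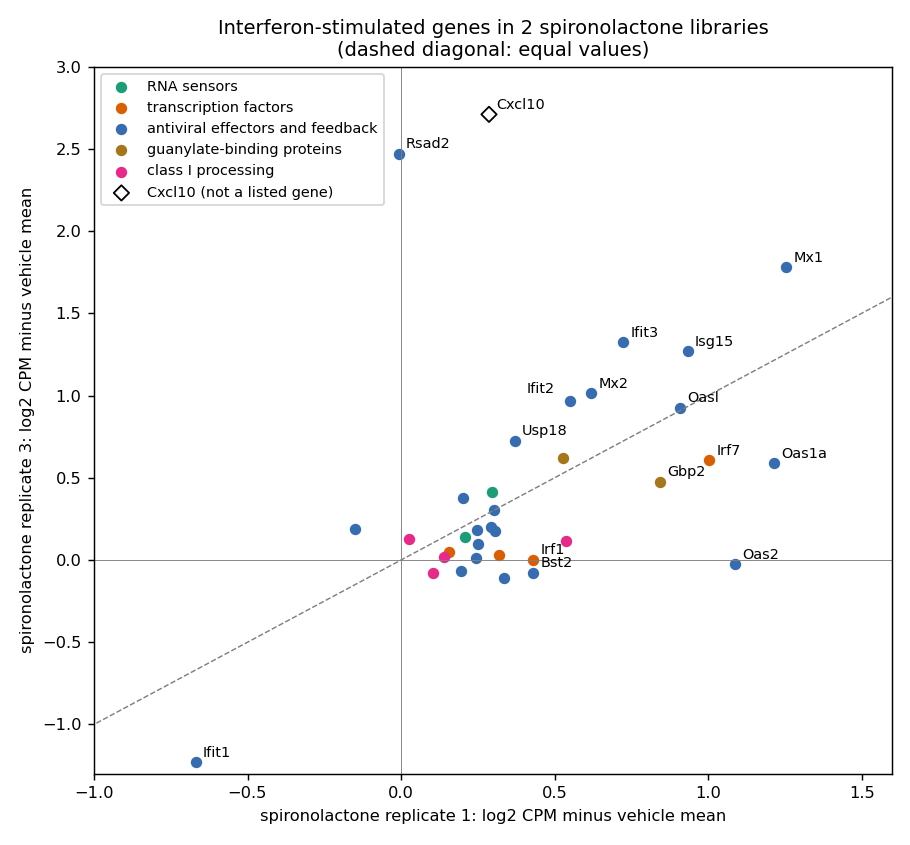
Log2 CPM minus the vehicle mean in spironolactone replicate 1 (horizontal) and replicate 3 (vertical) for the 34 tested interferon-stimulated genes, coloured by role, with Cxcl10 as an open diamond. Rsad2 and Cxcl10 stand far above the dashed line of equal values, at 36.2 and 29.4 CPM in replicate 3, while Oas2, Oas1a and Irf7 lie below it and Psmb8, Psmb9 and Tap1 lie near the origin, with Nlrc5 to their right (5.52 CPM in replicate 1).

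No difference beyond the spread between libraries was detectable in the class I processing genes. All 4 tested overlapped between the groups, as did 23 of 28 sensors, factors and effectors, and 0 of either list passed the edgeR test. Psmb8 and Psmb9 encode catalytic subunits that turn the proteasome into the immunoproteasome. Psmb8 had 9.92, 8.22 and 9.1 CPM with spironolactone and 9.71, 9.81 and 7.63 CPM with vehicle. Psmb9 had 21.8, 19.3 and 19.2 CPM against 21.5, 21.2 and 18.3 CPM. In both genes the groups overlapped throughout, with means of 9.08 ± 0.851 against 9.05 ± 1.23 CPM for Psmb8 and 20.1 ± 1.47 against 20.3 ± 1.76 CPM for Psmb9 (SD, n = 3 each).

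Tap1 encodes a chain of the transporter that carries peptides to class I molecules. Tap1 had 38.4, 35.6 and 41.2 CPM with spironolactone and 39, 43.1 and 31.9 CPM with vehicle. Nlrc5, the transactivator of class I genes, had 5.52, 3.22 and 4.1 CPM against 3.98, 5.24 and 2.57 CPM. Vehicle libraries spanned the spironolactone values in Tap1, and in both genes vehicle replicate 3 was the lowest. The log2 fold changes were 0.02 (SE 0.116) for Tap1 and 0.12 (SE 0.306) for Nlrc5, and adjusted p by edgeR among the 4 tested class I genes ran from 0.838 to 0.991. The range of log2 CPM was wider among spironolactone libraries in 0 of these 4 genes, against 23 of 28 sensors, factors and effectors. Tap2, the other transporter chain, held 0 counts in each spironolactone library and 2, 0 and 1 counts in the vehicle libraries. A count of 0 allows up to 3 counts, or 0.121 to 0.169 CPM in these libraries, so no fold is given for Tap2.

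**Figure D4:**
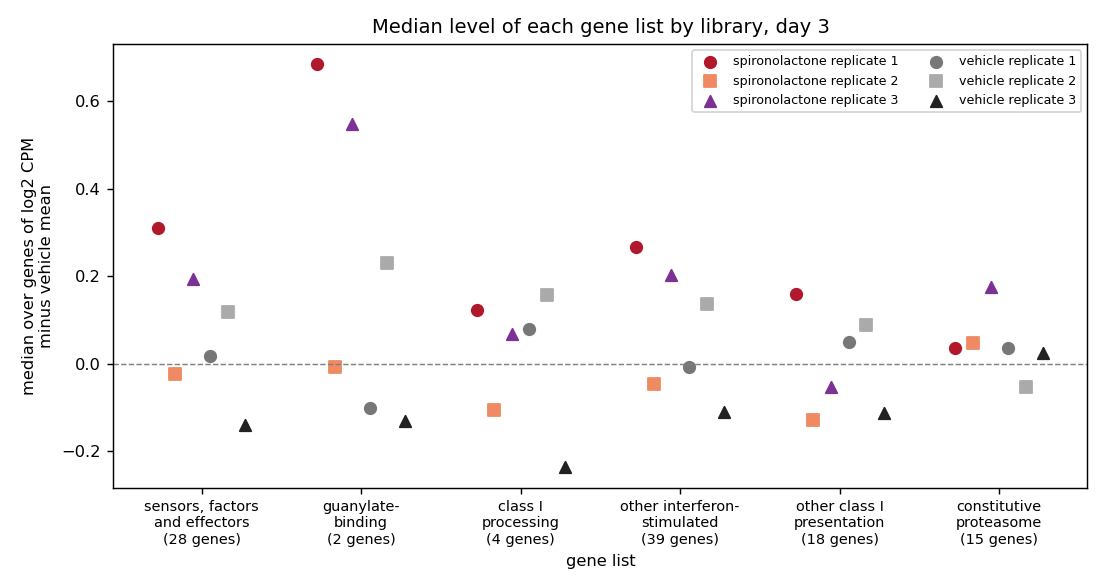
Median over the tested genes of each list of log2 CPM minus the vehicle mean, 1 point per day 3 library (red, orange and purple for spironolactone, grey to black for vehicle). Spironolactone replicates 1 and 3 lie above all vehicle libraries for sensors, factors and effectors (0.31 and 0.19) and for the guanylate-binding genes, but among them for class I processing (0.12 and 0.07).

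Levels scaled for length covered a wide range among the members. Ifi27, a small mitochondrial protein gene, was the highest at 239 TPM over the 6 libraries, followed by the virion tether gene Bst2 at 76 TPM and Gbp2 at 69.5 TPM. Their log2 fold changes were 0.01 (SE 0.187) for Ifi27 and 0.04 (SE 0.188) for Bst2. The lowest were Tap2, Ifit1 at 0.373 TPM, Nlrc5 at 1.1 TPM and Oas2 at 3.05 TPM. Ifit1 held 4 to 17 counts per library and had a log2 fold change of -0.77 (SE 0.399), the lowest of the members, and -0.50 without spironolactone replicate 3. The neighbouring gene Ifit1bl, looked at after these values were seen, had 9.69, 6.4 and 15.1 CPM with spironolactone and 11.6, 12.8 and 9.57 CPM with vehicle. None of the 210 deposited counts of the 35 members had a decimal part, whereas 23 of 48 counts of the 8 RT1 class I genes did. RSEM gives a count with a decimal part where it divides reads between similar genes.

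Of the other members, the ISG15-removing protease gene Usp18 differed by 0.38 on the log2 scale (SE 0.198), and by 0.18 without spironolactone replicate 3. Parp9, Dtx3l and Parp14, whose products act in ADP-ribose and ubiquitin modification, had 0.13, 0.13 and 0.14 (SE 0.0967, 0.12 and 0.13), and 0.06, 0.05 and 0.06 without spironolactone replicate 1. The nucleotide kinase gene Cmpk2 (0.00), Ifi44 (0.03) and the ISG15 ligase gene Herc6 (-0.08) lay near 0. Cmpk2 lies beside Rsad2 in the genome, yet in spironolactone replicate 3 it was at 26.7 CPM against 21.1 to 24 CPM in the other libraries.

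The pathway outside the listed members was examined by lists. All 11 interferon ligand genes with a row (of 12 listed), including Ifnb1 and Ifng, held 0 counts in every library, which allows up to 0.169 CPM at this depth. Of 17 receptor and signalling genes, 8 were positive and 9 negative, with a median log2 fold change of -0.02, and 0 passed the test. Tyk2, a kinase of the type I receptor, had 53.4, 54.8 and 55 CPM against 45.8, 47.7 and 49 CPM. Tyk2 differed by 0.20 on the log2 scale (SE 0.0517), and edgeR's adjusted p was 0.0984. The groups did not overlap. The receptor gene Ifnar1 had a log2 fold change of -0.23 (SE 0.0794), with 153, 143 and 136 CPM against 177, 176 and 151 CPM, where spironolactone replicate 1 and vehicle replicate 3 overlapped.

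Of 12 tested genes of nucleic acid sensing, 8 were positive, with a median of 0.05. Mavs, the adaptor of both RNA sensors, had a log2 fold change of 0.20 (SE 0.0595). Zbp1, a sensor of Z-form nucleic acid, had 13.5, 6.89 and 9.75 CPM against 5.48, 6.45 and 5.69 CPM. Its groups did not overlap, with replicate 1 the highest, and the log2 fold change was 0.77 (SE 0.241) with an edgeR adjusted p of 0.135, and 0.50 without that replicate. Dhx58, the third helicase of the RIG-I family, had 0.42 (SE 0.218), and 0.25 without vehicle replicate 3. Of 39 other interferon-stimulated genes tested, 31 were positive, with a median of 0.11. The smallest p-values there were those of Tor3a at 0.33 (SE 0.0748), Ifi35 at 0.29 (SE 0.0878) and Irgm at 0.33 (SE 0.1), each without overlap. The highest CPM lay in spironolactone replicate 1 for 20 and in replicate 3 for 10 of these 39, and in replicate 2 for 0, as among the members.

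Of 18 other class I presentation genes, 9 were positive and 9 negative, with a median of 0.01. B2m, the light chain of class I molecules, had 1230.4, 870.4 and 827 CPM with spironolactone and 1072, 1104 and 928 CPM with vehicle. The groups overlapped, and B2m differed by -0.08 on the log2 scale (SE 0.161), with an edgeR adjusted p of 0.772. The peptide-loading gene Tapbp had 0.19 (SE 0.0724), the class I gene RT1-M3-1 -0.18 (SE 0.0962) and the chaperone gene Canx -0.10 (SE 0.0528). Of 15 constitutive proteasome genes 14 were positive, with a median of 0.09 and with Psmb4 at 0.15 (SE 0.047), Psmb2 at 0.15 (SE 0.0624) and Psmb6 at 0.18 (SE 0.0944). Those named had the smallest p of their list, and the 15 genes ranged from -0.02 to 0.18. The immunoproteasome genes Psmb8 and Psmb9, at 0.00 and -0.02, lay within that range, and the difference between the lists was not tested.

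Single libraries set the size of these list medians. The median log2 fold change of the 34 members, 0.18 with all libraries, was 0.07 without spironolactone replicate 1, 0.27 without spironolactone replicate 2 and 0.30 without vehicle replicate 2. It was 0.16 without spironolactone replicate 3 and also 0.16 without vehicle replicate 3, and 0.08 without both replicates 3. The median of the 28 sensors, factors and effectors was 0.11 without spironolactone replicate 1 and 0.12 without both replicates 3. The number of members with a positive log2 fold change was 23 of 34 without spironolactone replicate 1, 25 without vehicle replicate 3 and 23 without both replicates 3. It was 25 when the deposited TPM were tested in place of counts, a fit in which the median over all genes was -0.06. By edgeR 0 members were called in each of the 7 fits with fewer libraries. Of all genes tested, 5.27% passed without vehicle replicate 3, 7.02% without both replicates 3, 0.27% without vehicle replicate 1, 0.0134% without spironolactone replicate 3 and 0% in the other fits. The median of the class I processing genes changed sign, at -0.07 without spironolactone replicate 1 and -0.08 without vehicle replicate 3.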

How the data were processed

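Expected counts per gene were deposited by the authors for each day 3 library, with TPM values that the authors scaled by gene length and depth, per the file headers, whose layout is that of RSEM. RSEM 1.2.28 and STAR 2.5.3a stand in the submitters' processing notes, with the build names rn6 and Rnor_6.0 and no roles. No source used here gives the strand setting, so overlapping genes may share reads.

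Counts were rounded to whole numbers; 1 row naming no gene was left out. filterByExpr (minimum count 10) selected genes, which were scaled by TMM and tested with edgeR 4.0.16 (quasi-likelihood, robust, R 4.3.3), with Benjamini-Hochberg adjustment over all genes at 0.05. SE is the log2 fold change over the square root of F. CPM is TMM-scaled; log2 CPM has a prior count of 2. No pair of libraries in a group agreed within sampling noise (chi-square per gene 7.62 to 22.8). Alternatives were DESeq2 1.42.0, limma-voom (limma 3.58.1), RLE factors, other filters, log2(TPM + 1), a replicate block and left-out libraries. Tests were checked on simulated counts drawn without shifts of single libraries, so that check does not cover such shifts.

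The members and gene lists were chosen with earlier results of these data known. Library values are given for the 12 members with the smallest p, the class I processing genes and both sensors; of each other list the 3 genes with the smallest p are named, plus B2m, Ifnb1, Ifng and Cxcl10, except 1 gene that is not reported here. Other genes named were chosen after their values were seen.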

Additional observations from a re-analysis of the deposited data

How the results depend on the processing

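All 14 alternatives were planned. The count of called members was 0 by edgeR with all libraries, 2 under DESeq2 and 1 with no filter on low counts, and 0 in the other 12. DESeq2 gave no adjusted p for 1 member, Ifit1. The labels do not pair the samples by replicate number. Deviations of same-numbered libraries correlated at 0.0898, -0.0845 and 0.0486 across genes, and those of other pairs at -0.106 to 0.0497. With so few libraries these values cannot exclude a pairing. With the replicate block 0 members were called, the median log2 fold change was 0.17, and Cmpk2 changed sign (-0.00535). With 1 library left out at a time, the median log2 fold change ran from 0.069 to 0.295 for all members, from 0.112 to 0.295 for sensors, factors and effectors, and from -0.084 to 0.102 for class I processing genes. Of 34 members, 21 kept their direction in every alternative that gave a value and 13 reversed in at least 1, of which none was called. With log2(TPM + 1) the median log2 fold change over all genes was -0.06, against -0.01 by edgeR with all libraries. The log2 fold changes that changed sign there were Stat2 -0.00316, Bst2 -0.0558, Ifi44 -0.0343, Ifi27 -0.0556, Cmpk2 -0.058, Tap1 -0.0162. With limma-voom they were Bst2 -0.0106, Cmpk2 -0.00516, Psmb8 -0.000781. Cmpk2 also changed sign with no filter on low counts (-0.000654) and with a filter of CPM 1 in 3 libraries (-0.00225). Without both replicates 3 they were Stat2 -0.0334, Rsad2 -0.0622, Ifi44 -0.0192, Ifi27 -0.064, Cmpk2 -0.1003, Psmb8 -0.108, Tap1 -0.145, Nlrc5 -0.0927. With 1 library left out the lowest and highest values of genes that changed sign were Irf9 -0.0548 to 0.177, Stat2 -0.024 to 0.159, Oas2 -0.215 to 0.63, Bst2 -0.195 to 0.197, Ifi44 -0.0771 to 0.177, Ifi27 -0.17 to 0.115, Cmpk2 -0.101 to 0.0708, Herc6 -0.229 to 0.0665, Psmb8 -0.0894 to 0.0773, Psmb9 -0.0759 to 0.0329, Tap1 -0.0786 to 0.128, Nlrc5 -0.103 to 0.392, B2m -0.285 to 0.0214 and Ifit1bl -0.502 to 0.137. The cause of these changes was not tested. The planned fits at day 7 were not run, since the members could not be named there. Low counts limited what could be said of Tap2 and the interferon ligand genes, at or under the 3 counts that a count of 0 allows. They also limited Ifit1, and the reason for these low counts was not tested.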

Other observations

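Socs3, a feedback inhibitor of cytokine signalling through JAK kinases, was looked at after its values were seen and varied more among vehicle than among spironolactone libraries. Socs3 had 50.8, 29.6 and 10.9 CPM in vehicle replicates 1, 2 and 3 and 10.1, 11.2 and 10.3 CPM in spironolactone replicates 1, 2 and 3. Vehicle replicate 3, with 807 TPM of lens markers, lay within the range of the spironolactone libraries. The log2 fold change of Socs3 was -1.53 (SE 0.549, adjusted p = 0.189 by edgeR) with all libraries. It was -1.92 without vehicle replicate 3 (adjusted p = 0.018 by edgeR), a fit in which 5.27% of all genes passed. It was -0.94 without vehicle replicate 1 (adjusted p = 0.392 by edgeR), and the adjusted p reached 0.405 without vehicle replicate 2.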
